A study of Homo sapiens with 4 samples.

Results

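EWSR1-FLI1 is the fusion of EWSR1 with the ETS transcription factor FLI1 that drives Ewing sarcoma, and it is known both for switching genes on through GGAA repeats and for holding mesenchymal genes down. Described here are 9 such genes: the lysyl oxidases LOX, LOXL1 and LOXL2, the matrix glycoproteins THBS1, TNC and FN1, the protease inhibitor TIMP3, the intermediate filament gene VIM and the TGF-beta receptor TGFBR2. They were taken by symbol from general knowledge of the fusion's repressed targets, with earlier results of these data known. Counts of these genes called are thus a description. All 9 were present among 23228 genes in the deposited counts, all 9 passed the filter on low counts that left 13712 genes for testing, and 8 averaged 5 CPM (counts per 1000000 reads in genes, after TMM scaling) or more, as did 10595 genes in all. THBS1 was the exception, and it passed the filter only through 11 reads in 1 library.

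The libraries came from A673, an established Ewing sarcoma cell line that carries the fusion, and the cells had been transfected with FAT4 siRNA or with a scrambled control siRNA. FAT4 is an atypical cadherin. RNA was sequenced 48 h and 24 h after transfection, with 1 library for each siRNA and time, 4 in all, so neither siRNA had a replicate at either time. The fusion was present in both groups and was not varied, and whether it represses these genes could not be checked here. The libraries held 15413960 (FAT4 siRNA, 48 h), 15196813 (FAT4 siRNA, 24 h), 19614913 (control siRNA, 48 h) and 22625833 (control siRNA, 24 h) reads in genes. FAT4 itself stood at 60.2 CPM (48 h) and 71.8 CPM (24 h) under FAT4 siRNA, against 149 and 165 CPM under control siRNA at the same times, a ratio of 0.405 (95% counting interval 0.376 to 0.435) at 48 h and 0.436 (0.407 to 0.467) at 24 h. Among 10 Ewing sarcoma markers, 9 were tested. The markers summed to 1210 and 1480 CPM under FAT4 siRNA (48 h, 24 h) and to 1440 and 1450 CPM under control siRNA. CD99 was listed at 0 in all 4 libraries. The reason was not tested, and the 0 does not show that its RNA was absent. Summed fibroblast markers lay at 1010 and 716 CPM under FAT4 siRNA (48 h, 24 h) and at 1020 and 809 CPM under control siRNA. COL1A2 was the largest part, at 716 and 395 CPM under FAT4 siRNA and 594 and 374 CPM under control siRNA. THY1 came next, at 208 and 234 CPM under FAT4 siRNA and 331 and 343 CPM under control siRNA. Under FAT4 siRNA THY1 (log2 fold change -0.61) and PDGFRB (-0.47) were called lower by edgeR and COL3A1 (0.57) higher, and their part in the results was not tested. Blood markers summed to 0.348 to 0.541 CPM, with CD3E and HBB at 0, and endothelial markers to 1.08 to 2.06 CPM. Epithelial markers summed to 160 to 209 CPM, mostly KRT18 at 143 to 191 CPM, with GRHL2 at 0. Of the 3 epithelial markers tested, KRT8 was called lower under FAT4 siRNA (log2 fold change -0.52, edgeR adjusted p = 0.00232). In bulk RNA, fewer cells that express a gene and less RNA of it per cell cannot be told apart.

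Lysyl oxidases are secreted copper enzymes that oxidise lysines of collagen and elastin so that the fibres crosslink. Fibronectin, tenascin-C and thrombospondin-1 are matrix glycoproteins that cells bind through integrins and other receptors, and TIMP3 is an inhibitor, bound to the matrix, of the proteases that cut it. Vimentin is the intermediate filament of mesenchymal cells, and TGFBR2 is the receptor kinase that binds TGF-beta and starts the SMAD signal that raises many matrix genes.

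The 9 genes did not move as a block under FAT4 siRNA. LOX, TNC, FN1 and VIM were higher and LOXL1, LOXL2 and TIMP3 were lower than under control siRNA in a fit over both times, while THBS1 and TGFBR2 did not pass the test. The called changes were moderate, from a log2 fold change of -0.77 for LOXL1 to 0.63 for LOX. Thus 4 of 9 were called higher and 3 of 9 lower by edgeR's quasi-likelihood test with Benjamini-Hochberg adjustment, while 11.9% of all tested genes were called higher and 14.1% lower. With offsets for GC content and transcript length the split over all genes turned to 1807 higher and 1469 lower. Over the 8 genes that averaged 5 CPM or more the median log2 fold change was 0.03, against 0.00 over all tested genes at that level. This fit has time as an additive term and 1 residual degree of freedom, so its p-values weigh single libraries and not the spread between cultures. In an edgeR fit without the time term no gene was called, with 1706 genes, LOXL1 and TIMP3 among them, at an unadjusted p under 0.05. DESeq2 called only LOXL1, TIMP3 and VIM of these genes.

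**Figure D1:**
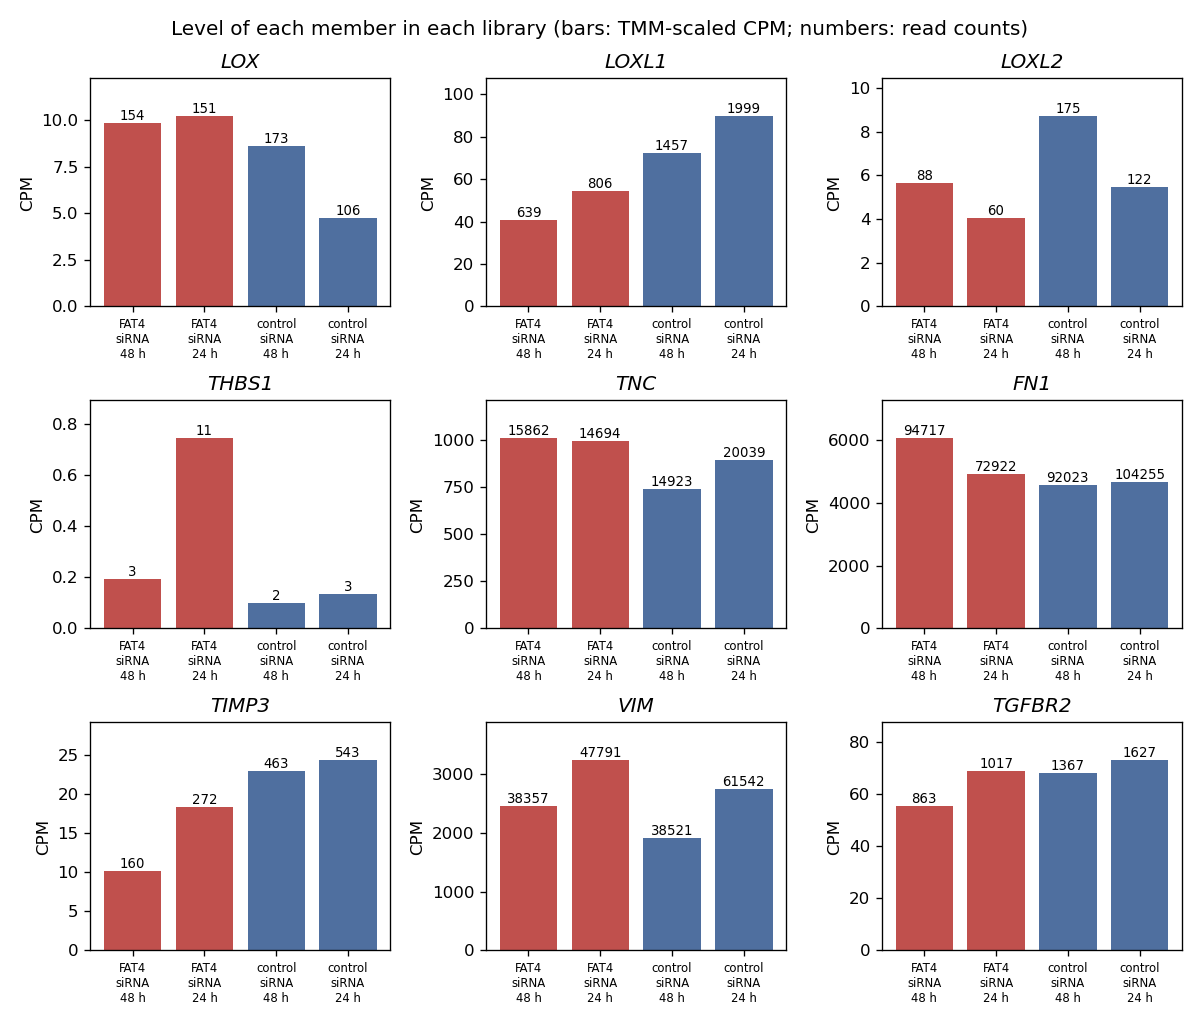
Level of each of the 9 genes in each library, in TMM-scaled CPM (bars, linear axis from 0), with the read count printed above each bar; FAT4 siRNA is in red and control siRNA in blue, at 48 h and 24 h. LOXL1 and TIMP3 are lower in both FAT4 siRNA libraries than in either control library, FN1 is highest under FAT4 siRNA at 48 h, and THBS1 rests on 2 to 11 reads.

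Fibronectin, the glycoprotein that cells assemble into fibrils and on which collagen is laid down, was among the most abundant messages of these cells. FN1 had 94717 reads (6050 CPM) at 48 h and 72922 reads (4930 CPM) at 24 h under FAT4 siRNA, against 92023 reads (4570 CPM) and 104255 reads (4670 CPM) under control siRNA. Both FAT4 siRNA libraries lay above both control libraries, and the 48 h FAT4 siRNA library stood apart from the other 3. How many of all genes had groups that did not overlap was not counted. Such separation, here and for TNC, LOXL1 and TIMP3 below, thus has no background beside it. Its CPM ratio was 1.32 (95% counting interval 1.31 to 1.34) at 48 h and 1.06 (1.05 to 1.07) at 24 h. Over both times the log2 fold change was 0.24 ± 0.0899 (SE; edgeR adjusted p = 0.0313). The value rested on the 48 h libraries: without either 48 h library it was 0.10 (FAT4 siRNA left out) or 0.08 (control siRNA left out), and without either 24 h library 0.42 (FAT4 siRNA) or 0.41 (control siRNA).

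Tenascin-C, a matrix glycoprotein of developing and wounded tissue, showed the same order of libraries at lower abundance. TNC had 15862 reads (1010 CPM) at 48 h and 14694 reads (994 CPM) at 24 h under FAT4 siRNA, against 14923 reads (742 CPM) and 20039 reads (897 CPM) under control siRNA. The groups did not overlap, a separation not counted over all genes, and the lowest library was control siRNA at 48 h. The CPM ratio was 1.37 (1.34 to 1.4) at 48 h and 1.11 (1.08 to 1.13) at 24 h. The log2 fold change was 0.30 ± 0.0882 (SE; edgeR adjusted p = 0.00493), between 0.15 and 0.17 without either 48 h library and between 0.45 and 0.46 without either 24 h library. The promoter of TNC is shown because it alone of those searched among these genes held 2 GGAA words in tandem (GGAAGGAA). Whether the fusion binds there was not tested. From RefSeq (GRCh38.p14), 250 bases before to 50 after the start, minus strand, chr9:115118108-115118407, GGAA and its complement TTCC in capitals:
TNC promoter: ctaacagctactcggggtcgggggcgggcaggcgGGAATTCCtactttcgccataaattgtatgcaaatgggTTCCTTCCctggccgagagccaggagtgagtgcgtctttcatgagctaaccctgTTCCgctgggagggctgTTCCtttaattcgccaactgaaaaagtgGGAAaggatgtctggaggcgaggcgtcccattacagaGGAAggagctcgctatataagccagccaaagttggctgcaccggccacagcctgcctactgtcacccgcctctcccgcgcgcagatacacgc
GGAA was found 8 times on both strands of this window, where the median of 35116 RefSeq promoters was 3 and 95.5% held it at least once. GGAAGGAA, whose matches overlap those of GGAA, was found 1 time and is held by 3.7% of all promoters. The letters describe the window only.

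Thrombospondin-1, a matricellular protein that binds CD47 and CD36 and can release active TGF-beta, was near the limit of detection. THBS1 had 3 reads at 48 h and 11 reads at 24 h under FAT4 siRNA, against 2 and 3 reads under control siRNA, where 3 reads correspond to 0.134 to 0.203 CPM. Only the FAT4 siRNA 24 h library, at 0.744 CPM, was above that floor. The ratio was 1.93 (0.221 to 23.1) at 48 h and 5.54 (1.46 to 30.9) at 24 h. The fit did not call it (log2 fold change 1.93 ± 0.871 SE, edgeR adjusted p = 0.0853), and without either 24 h library the value was 0.90 (control siRNA left out) or 0.92 (FAT4 siRNA left out).

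The 3 lysyl oxidases differed from each other. LOX, the founding enzyme of the family, had 154 reads (9.84 CPM) at 48 h and 151 reads (10.2 CPM) at 24 h under FAT4 siRNA, against 173 reads (8.6 CPM) and 106 reads (4.75 CPM) under control siRNA. Control siRNA at 24 h was the low library, and the other 3 lay close together. The CPM ratio was 1.15 (0.916 to 1.43) at 48 h, an interval that includes 1, and 2.15 (1.67 to 2.79) at 24 h. The log2 fold change was 0.63 ± 0.189 (SE; edgeR adjusted p = 0.00622), but between 0.20 and 0.21 without either 24 h library and between 1.10 and 1.13 without either 48 h library. The gene SRFBP1 lies on the opposite strand over LOX, stood at 31.6 and 35.7 CPM under FAT4 siRNA (48 h, 24 h) against 17.5 and 22.7 CPM under control siRNA, and was called higher too (log2 fold change 0.75, edgeR adjusted p = 4.25e-07). Whether reads of one were counted for the other was not tested, and the counter's strand setting was not given in the sources used here.

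LOXL1, an oxidase known for its part in laying down and renewing elastic fibres, moved the other way. It had 639 reads (40.8 CPM) at 48 h and 806 reads (54.5 CPM) at 24 h under FAT4 siRNA, against 1457 reads (72.4 CPM) and 1999 reads (89.5 CPM) under control siRNA. Both FAT4 siRNA libraries were below both control libraries, a separation not counted over all genes. The ratio was 0.564 (0.513 to 0.62) at 48 h and 0.609 (0.561 to 0.662) at 24 h, and the log2 fold change was -0.77 ± 0.106 (SE; edgeR adjusted p = 3.16e-11). Without any 1 library it stayed between -0.83 and -0.69. The antisense transcript LOC100287616 at LOXL1 showed no such pattern, at 9.14 and 8.05 CPM under FAT4 siRNA (48 h, 24 h) and 10.9 and 7.52 CPM under control siRNA.

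LOXL2, known for crosslinking the collagen of basement membranes, was near LOX in abundance. It had 88 reads (5.63 CPM) at 48 h and 60 reads (4.06 CPM) at 24 h under FAT4 siRNA, against 175 reads (8.7 CPM) and 122 reads (5.46 CPM) under control siRNA. FAT4 siRNA was lower at each time, but the groups overlapped, since its 48 h library lay above the 24 h control. The ratio was 0.647 (0.495 to 0.84) at 48 h and 0.743 (0.536 to 1.02) at 24 h. Its call was at the threshold itself (log2 fold change -0.54 ± 0.216 SE, edgeR adjusted p = 0.049996), and was lost with DESeq2 size factors (0.055) and in 4 other settings.

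Promoters of LOX and LOXL1 are shown side by side because the enzymes moved in opposite directions. Both are from RefSeq (GRCh38.p14) with GGAA or TTCC in capitals, LOX from its most upstream start at chr5:122078210-122078509 on the minus strand and LOXL1 at chr15:73926212-73926511 on the plus strand:
LOX promoter: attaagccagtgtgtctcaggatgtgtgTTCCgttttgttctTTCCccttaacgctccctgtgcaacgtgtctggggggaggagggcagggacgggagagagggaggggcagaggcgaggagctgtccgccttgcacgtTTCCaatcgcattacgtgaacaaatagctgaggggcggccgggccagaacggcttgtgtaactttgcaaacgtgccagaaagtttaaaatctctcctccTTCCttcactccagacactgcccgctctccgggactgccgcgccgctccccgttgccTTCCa
LOXL1 promoter: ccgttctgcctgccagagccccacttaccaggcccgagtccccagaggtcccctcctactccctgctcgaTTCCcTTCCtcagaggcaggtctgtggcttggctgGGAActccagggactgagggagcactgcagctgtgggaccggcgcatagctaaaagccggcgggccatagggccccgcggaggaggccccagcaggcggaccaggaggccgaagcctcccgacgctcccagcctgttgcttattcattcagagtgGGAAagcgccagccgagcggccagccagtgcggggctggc
GGAA was found 5 times in the LOX window and 4 times in the LOXL1 window, both above the median of 3. Neither held GGAAGGAA or the ETS word CCGGAAG, which 10.3% of promoters hold. Their GC content was 58% and 67.3%.

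Transcript composition also separated these oxidases. LOX transcripts are 39.6% GC, within the lowest quartile of genes (under 41.8%), while LOXL1 (67%) and LOXL2 (58.2%) are in the highest (above 56.3%). Over 10461 genes, the median log2 ratio of FAT4 siRNA over control siRNA was lower at high GC: it was -0.10 in the highest and 0.08 in the lowest quartile at 48 h, and -0.23 and 0.19 at 24 h. With offsets for GC and length, LOX was still called at 0.54 (edgeR adjusted p = 0.0241) and LOXL1 at -0.41 (0.000367), while LOXL2 at -0.38 (0.187) was not called. The CPM ratio of LOXL1 was then 0.679 at 48 h and 0.826 at 24 h. The same offsets gave 0.47 for TNC and 0.37 for FN1.

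**Figure D2:**
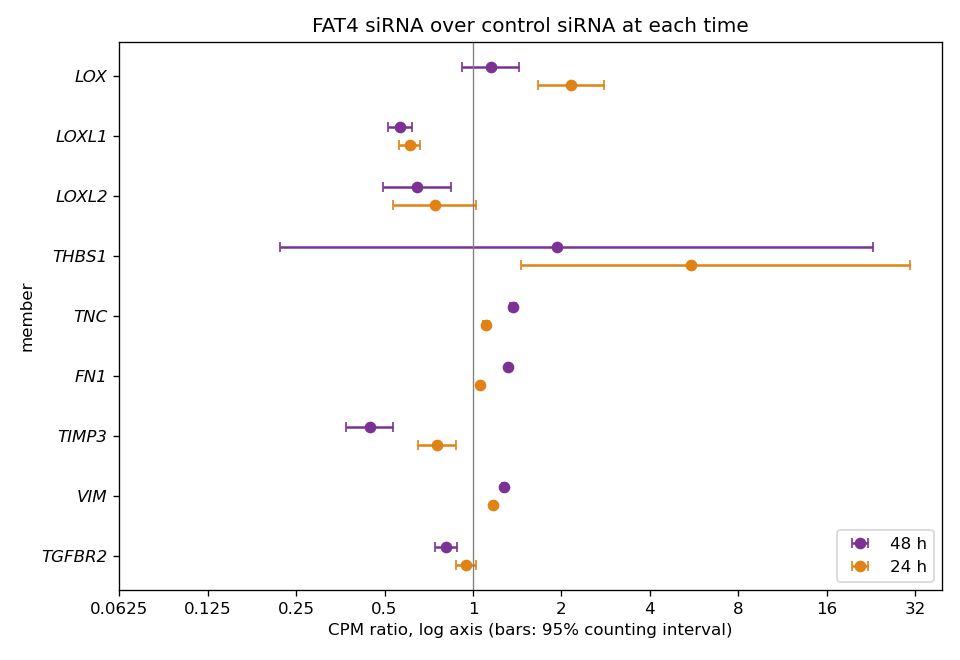
Ratio of CPM, FAT4 siRNA over control siRNA, for each gene at 48 h (purple) and 24 h (orange) on a log axis, with exact 95% intervals that cover counting error only. LOXL1 lies below 1 at both times, LOX is above 1 mainly at 24 h, TIMP3 falls further below 1 at 48 h, and the intervals of THBS1 span most of the axis.

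TIMP3, which inhibits matrix metalloproteinases and the sheddase ADAM17, fell under FAT4 siRNA, with the lower ratio at 48 h. It had 160 reads (10.2 CPM) at 48 h and 272 reads (18.4 CPM) at 24 h under FAT4 siRNA, against 463 reads (23 CPM) and 543 reads (24.3 CPM) under control siRNA. The groups did not overlap, a separation not counted over all genes, and the 48 h FAT4 siRNA library was the lowest. The ratio was 0.445 (0.369 to 0.533) at 48 h and 0.757 (0.652 to 0.877) at 24 h. The log2 fold change was -0.76 ± 0.145 (SE; edgeR adjusted p = 4.17e-06). It was between -1.17 and -1.16 without either 24 h library and between -0.40 and -0.38 without either 48 h library.

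Vimentin, the abundant filament protein, was higher under FAT4 siRNA by a similar factor at each time. VIM had 38357 reads (2450 CPM) at 48 h and 47791 reads (3230 CPM) at 24 h under FAT4 siRNA, against 38521 reads (1910 CPM) and 61542 reads (2750 CPM) under control siRNA. The groups overlapped over the 4 libraries, as both siRNAs gave lower levels at 48 h. The ratio was 1.28 (1.26 to 1.3) at 48 h and 1.17 (1.16 to 1.19) at 24 h, with a log2 fold change of 0.29 ± 0.0889 (SE; edgeR adjusted p = 0.00637).

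TGFBR2, whose loss of expression in Ewing sarcoma is a known effect of the fusion, was not called. It had 863 reads (55.2 CPM) at 48 h and 1017 reads (68.8 CPM) at 24 h under FAT4 siRNA, against 1367 reads (67.9 CPM) and 1627 reads (72.8 CPM) under control siRNA. FAT4 siRNA at 48 h was the lowest library, and the others overlapped. The ratio was 0.812 (0.745 to 0.885) at 48 h and 0.945 (0.873 to 1.02) at 24 h, with a log2 fold change of -0.19 ± 0.104 (SE; edgeR adjusted p = 0.171). Leaving out 1 library moved it between -0.30 (without control siRNA at 24 h) and -0.06 (without FAT4 siRNA at 48 h).

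At single times, where no test is possible, a CPM ratio of at least 1.5-fold was counted for the 8 genes that averaged 5 CPM or more. At 48 h, 0 of 8 were at least 1.5-fold higher under FAT4 siRNA (4.1% of all such genes), and 3 of 8, LOXL1, LOXL2 and TIMP3, at least 1.5-fold lower (6.9%). At 24 h, 1 of 8, LOX, was higher by that factor (2.62%) and 1 of 8, LOXL1, was lower by it (4.61%). With GC and length offsets the counts changed. At 48 h only TIMP3 (0.459) was then lower by that factor and TNC (1.51) was higher, and at 24 h LOX (1.94) was higher and 0 of 8 were lower. The shares over all genes with these offsets were not counted, so these counts have no background beside them. On the log2(CPM + 1) scale, which understates changes of low genes, the difference of the 48 h from the 24 h siRNA ratio ran from -0.79 for LOX and -0.71 for TIMP3 to 0.33 for FN1 and 0.30 for TNC. With 1 library per siRNA and time these differences could not be tested.

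Levels per length, as mean CPM per kilobase of transcript, spanned the range of the cells. VIM (1210) and FN1 (568) were at percentiles 99.9 and 99.7 of tested genes with a matched transcript, and TNC (119) was at 96.4. LOXL1 (27.4) was at percentile 78.2 and TGFBR2 (14.3) at 62.2, followed by TIMP3 (4.12) at 34. LOXL2 (1.68) and LOX (1.64) were neighbours at 22.2 and 21.9, and THBS1 (0.0376) was at 0.121. Over the 4 libraries the range of LOXL2 overlapped those of LOX and of TIMP3, and no other neighbours in this order overlapped. VIM, FN1 and TNC, although known as repressed by the fusion, were thus abundant in cells that carry it.

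Between 48 h and 24 h, 4 of the 9 genes changed in the fit over both siRNAs. By edgeR, 1 of 9 was called higher at 48 h than at 24 h, LOXL2 (13.8% of all tested genes), and 3 of 9 lower, LOXL1, TIMP3 and VIM (12.8%). Over the 8 genes that averaged 5 CPM or more the median log2 fold change was -0.16, against -0.02 over all tested genes at that level. The split over all genes was 1892 higher and 1754 lower, and it turned on the scaling: 1557 higher and 2986 lower with GC and length offsets, 2330 higher and 1183 lower with library totals alone. VIM fell at 48 h to 2450 CPM, against 3230 CPM at 24 h, under FAT4 siRNA, and to 1910 CPM, against 2750 CPM, under control siRNA (log2 fold change -0.46 ± 0.089 SE, edgeR adjusted p = 5.2e-06). LOXL1 fell, with ratios of 0.749 (0.674 to 0.832) under FAT4 siRNA and 0.809 (0.756 to 0.866) under control siRNA (-0.36 ± 0.105 SE, edgeR adjusted p = 0.00495). LOXL2 rose, with ratios of 1.39 (0.987 to 1.96) under FAT4 siRNA and 1.59 (1.26 to 2.02) under control siRNA (0.59 ± 0.215 SE, edgeR adjusted p = 0.0284). TIMP3 was called lower (-0.41 ± 0.145 SE, edgeR adjusted p = 0.0214), but its ratio was 0.556 (0.454 to 0.678) under FAT4 siRNA and 0.946 (0.834 to 1.07) under control siRNA. Without either control library its log2 fold change was -0.85, and without either FAT4 siRNA library -0.09. With library totals alone TIMP3 was not called (edgeR adjusted p = 0.0619). Of the 7 tested fibroblast markers, COL1A2 (log2 fold change 0.76) and LUM (2.44, on 2 to 14 reads and past the filter through 1 library) were called higher at 48 h and COL1A1 (-0.54) lower by edgeR, and their part in these changes was not tested.

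The other genes were not called for time, and 3 of them had opposite signs under the siRNAs. How many of all genes did so was not counted. LOX had a 48 h over 24 h ratio of 0.964 (0.765 to 1.21) under FAT4 siRNA and 1.81 (1.41 to 2.33) under control siRNA. TNC stood at 1.02 (0.997 to 1.04) under FAT4 siRNA and 0.827 (0.809 to 0.844) under control siRNA. For FN1 the ratio was 1.23 (1.22 to 1.24) under FAT4 siRNA and 0.98 (0.971 to 0.989) under control siRNA. It was the only gene of the 9 whose intervals lay on opposite sides of 1. These intervals leave out error of the scaling, which can move a ratio so near 1 to its other side. Of the 8 more abundant genes, 0 were 1.5-fold or more higher (6.54% of all such genes) and 1, TIMP3, 1.5-fold or more lower (3.38%) at 48 h under FAT4 siRNA. Under control siRNA 2, LOX and LOXL2, were higher by that factor or more (4.79%) and 0 lower (2.46%).

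**Figure D3:**
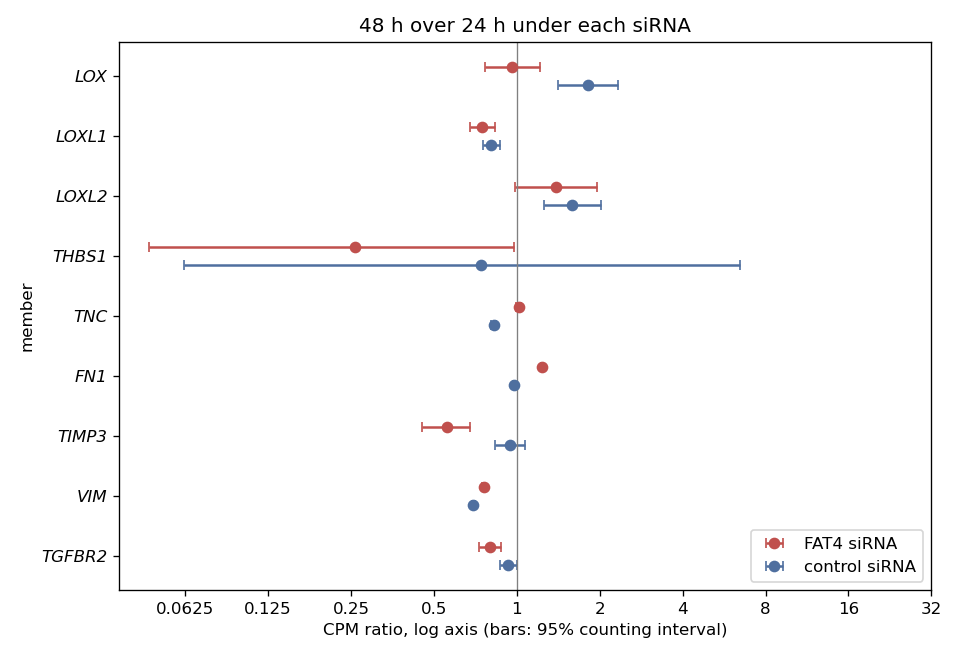
Ratio of CPM, 48 h over 24 h, for each gene under FAT4 siRNA (red) and control siRNA (blue) on a log axis, with exact 95% counting intervals. VIM and LOXL1 lie below 1 under both siRNAs, LOXL2 above 1 under both, LOX is above 1 under control siRNA, and TIMP3 is well below 1 under FAT4 siRNA.

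Relatives of these genes were examined from lists of known function, chosen with earlier results of these data known. Their siRNA counts are thus a description and stand against 11.9% of all tested genes called higher and 14.1% lower. Of 28 other genes known to be repressed by the fusion, 26 were tested, of which 10 were called higher and 1 lower under FAT4 siRNA (median log2 fold change 0.17). CTGF (1.93 ± 0.14 SE, edgeR adjusted p = 3.5e-39) and CYR61 (1.31 ± 0.118 SE, 2.16e-25) rose, both secreted matricellular proteins known as targets of YAP and TEAD. CTGF stood at 39.2 and 41.4 CPM under FAT4 siRNA (48 h, 24 h), against 7.25 and 14.6 CPM under control siRNA. DKK1 (1.8 ± 0.447 SE, edgeR adjusted p = 0.000636), an inhibitor of WNT signals, and IGFBP3 (1.71 ± 0.512 SE, 0.00584) rested on low counts, 8 and 54 reads and 13 and 27 reads under FAT4 siRNA (48 h, 24 h), against 5 and 20 reads and 3 and 15 reads under control siRNA.

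Among 18 genes of collagen and elastin crosslinking, 17 were tested, of which 3 were called higher and 2 lower (median 0.09), near the shares over all genes. PLOD3, a lysyl hydroxylase whose products lysyl oxidases act on, fell by 0.78 on the log2 scale (edgeR adjusted p = 1.46e-13), and ELN, the elastin that LOXL1 crosslinks, by 0.57 (5.56e-08). SERPINH1, the collagen chaperone, rose by 0.57 (edgeR adjusted p = 6e-09) and PLOD2, another lysyl hydroxylase, by 0.41 (0.000267). LOXL3 had 19 and 16 reads under FAT4 siRNA (48 h, 24 h) and 30 and 25 reads under control siRNA and was not called (-0.18 ± 0.409 SE, edgeR adjusted p = 0.791). LOXL4, with 0 to 2 reads, was not tested.

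Of 16 other TIMPs and metalloproteinases 15 were tested, of which 3 were called higher and 4 lower (median 0.05). TIMP2 fell with TIMP3: it stood at 52.7 and 55.4 CPM under FAT4 siRNA (48 h, 24 h), against 108 and 98.7 CPM under control siRNA (log2 fold change -0.93 ± 0.102 SE, edgeR adjusted p = 1.34e-17). The sheddase ADAM10 (-0.98 ± 0.0972 SE, edgeR adjusted p = 3.03e-21) and the aggrecanase ADAMTS4 (-0.85 ± 0.167 SE, 7.57e-06) fell as well. The membrane protease MMP14 rose by 0.73 ± 0.0919 (SE; edgeR adjusted p = 3.12e-13) and ADAM17, which TIMP3 inhibits, by 0.57 ± 0.0997 (3.49e-07). TIMP4 was called lower too (-0.68 ± 0.151 SE, edgeR adjusted p = 9.42e-05), while TIMP1 was not called (0.09, edgeR adjusted p = 0.505).

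Receptors and relatives of the 3 glycoproteins numbered 18, of which 14 were tested, 4 called higher and 1 lower (median -0.11). ITGB1, the beta chain of the fibronectin receptor, rose by 0.66 ± 0.0894 (SE; edgeR adjusted p = 1.45e-11) and the heparan sulphate proteoglycan SDC2 by 0.41 ± 0.0915 (0.000144). CD47, a thrombospondin receptor, fell by 0.40 (edgeR adjusted p = 0.00399). THBS4 was called higher (1.64 ± 0.609 SE, edgeR adjusted p = 0.031) on 24 and 5 reads under FAT4 siRNA (48 h, 24 h) and 9 and 3 reads under control siRNA. It passed the filter only through the 24 reads of the library where it was high, so its call gives no support.

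**Figure D4:**
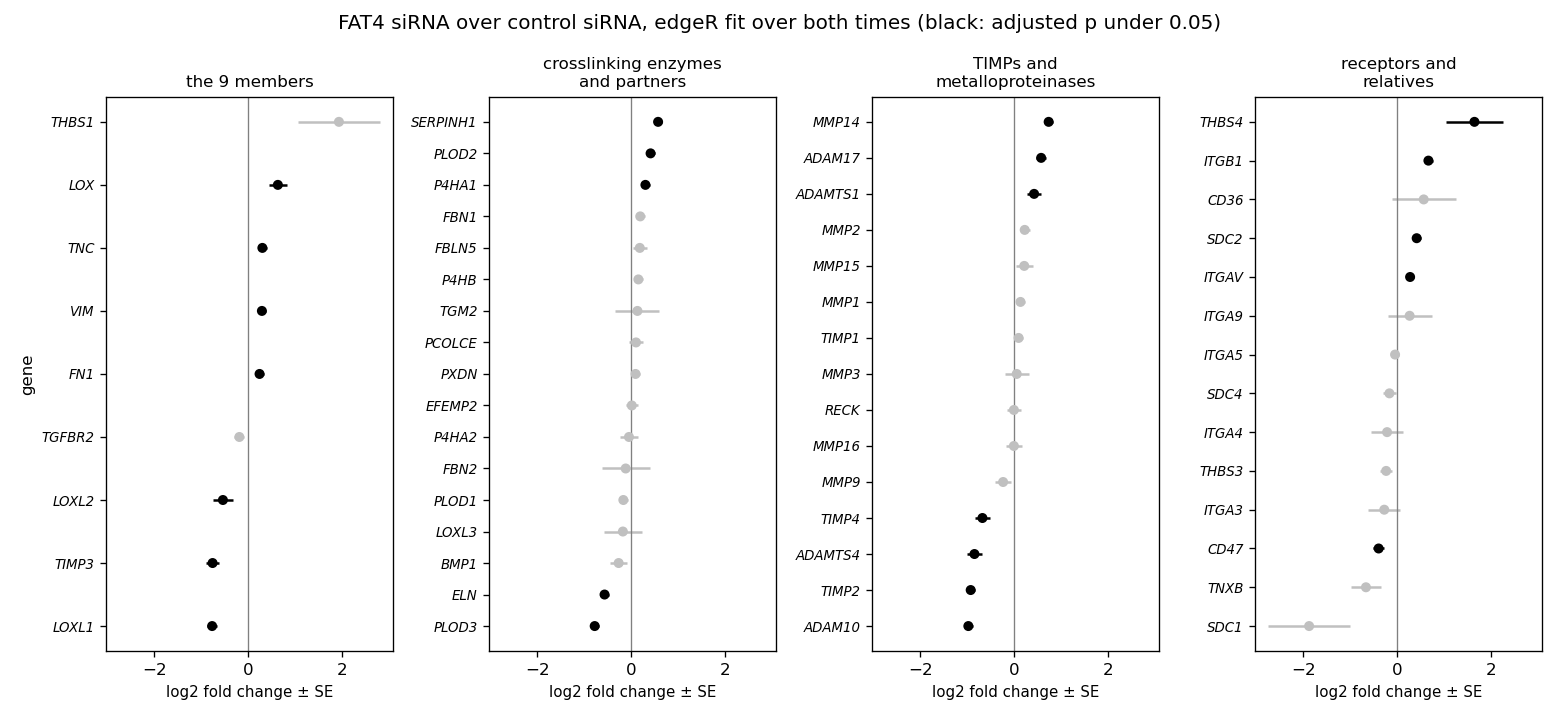
Log2 fold change of FAT4 siRNA over control siRNA (edgeR, over both times, bars are SE) for the 9 genes and the tested genes of 3 related lists, with genes at an adjusted p under 0.05 in black and others in grey. Each panel holds called genes on both sides of 0, with PLOD3, ELN, TIMP2 and ADAM10 low and SERPINH1, MMP14 and ITGB1 high.

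Of 21 other TGF-beta ligands, receptors and SMADs 20 were tested, with 1 called higher and 3 lower (median -0.06). LTBP3 (-0.58 ± 0.105 SE, edgeR adjusted p = 1.27e-06) and LTBP4 (-0.44 ± 0.105 SE, 0.000345), which hold latent TGF-beta in the matrix, and the ubiquitin ligase SMURF2 (-0.39 ± 0.124 SE, 0.00986) fell. The corepressor TGIF1 rose by 0.28 ± 0.101 (SE; edgeR adjusted p = 0.0291). TGFBR1, the partner kinase of TGFBR2, stood at 5.82 and 4.26 CPM under FAT4 siRNA (48 h, 24 h) and 4.67 and 3.27 CPM under control siRNA and was not called (edgeR adjusted p = 0.292).

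Of 15 other intermediate filament genes 11 were tested, with 1 called higher and 2 lower for the siRNA (median -0.08). The nuclear lamin LMNB1 rose by 0.91 (edgeR adjusted p = 3.03e-21), while KRT8 (-0.52, 0.00232) and NEFL (-0.34, 0.00177) fell. For time, 0 of the 11 were called higher and 8 lower at 48 h (median -0.37), against 13.8% and 12.8% of all tested genes, whose lower calls ran from 1183 to 2986 with the scaling. Of 8 mesenchymal transcription factors 7 were tested, and ZEB2 (0.35, edgeR adjusted p = 0.00124) was called higher and TCF4 (-0.39, 0.000293) lower.

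Words of 7 bases in 3' UTRs, picked with the ratios of these same libraries in view, were looked up in the 9 genes and in FAT4. TTGGACT or TGGACTA was held by 2000 of 12465 genes (16%), whose median log2 fold change was -0.06, against -0.01 for genes without it. Sites are shown for LOX, TIMP3 and TGFBR2, the only ones of the 9 to hold either, and for FAT4, from GENCODE release 29 transcripts with the word in capitals:
LOX site 1: atttttgtTTGGACTgttttcaa
LOX site 2: acagaaaaTGGACTAaataggaa
TIMP3 site: tgacaatcTGGACTAccccaaga
TGFBR2 site: gccttttaTTGGACTaaagggga
FAT4 site 1: gcttatgaTTGGACTtattttcc
FAT4 site 2: ggccagtaTGGACTAgtggtgga
LOX, with both words, rose, TIMP3, with 1, fell, and TGFBR2, where the words overlap, was not called. The other words, AGCCTTA and GCCTTAA, were held by 11.1% and 11.8% of genes, whose median log2 fold changes were 0.07 and 0.04, against -0.03 for genes without each, and of the 9 genes only LOX held one:
LOX site 3: acctctttGCCTTAAattgcttt
LOXL1, LOXL2, THBS1, TNC, FN1 and VIM hold none of the words searched. Sequences of the siRNAs were not used here.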

How the data were processed

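Stranded mRNA libraries were sequenced, 4 in all, per the labels' protocols. Tools named in the submitters' processing notes are HTSeq, SAMtools, TopHat2 and CASAVA 1.8.2, with hg19 as the build. The deposited values are raw whole-number counts per gene, which the authors did not normalize. Annotation and strand setting were not given in the sources used here. The 5 counter entries that name no gene were left out: reads outside genes were 19.48% to 20.54% and ambiguous reads 0.772% to 0.804%.

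Counts were fitted with edgeR 4.0.16 in R 4.3.3: TMM scaling, filterByExpr (minimum count 10, total 15), and a two-sided quasi-likelihood test of siRNA and time as additive terms over 13712 genes, with Benjamini-Hochberg adjustment at 0.05. The prior degrees of freedom were infinite, so the dispersion trend was common to all genes (BCV, the biological coefficient of variation, 0.0737), and the 1 residual degree of freedom holds the siRNA-by-time difference. CPM are TMM-scaled. Ratios at single times have exact 95% Clopper-Pearson intervals, which like the floor of 3 counts cover counting error only. The fit was tested on simulated data. Alternatives were 7 other fits (DESeq2 1.42.0 among them), leaving out each library and pseudocounts of 0.5 and 5 in place of 1.

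The 9 genes, the lists, the tests and the promoter and UTR words were chosen with earlier results of these data known. The text names the 9 genes, FAT4, LOXL3, LOXL4, up to 4 called genes per list by absolute siRNA change, and the 2 genes nearest in pattern to each. Genes overlapping the 9, TGFBR1, TIMP1, TIMP4, ADAM17 and marker genes were named beside them. GENCODE 29, on another build than hg19, gave transcript length, GC (96.5% of tested genes matched), UTR sites and overlaps without coordinates. RefSeq promoters are 250 bases before to 50 after a start.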

Additional observations from a re-analysis of the deposited data

Results flagged for a closer look

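For 3 of the 9 genes the change between 48 h and 24 h had opposite signs under the siRNAs on the log2(CPM + 1) scale, a difference that was not tested, as each siRNA and time had 1 library. LOX moved by -0.05 under FAT4 siRNA and 0.74 under control siRNA. TNC moved by 0.03 under FAT4 siRNA and -0.27 under control siRNA. FN1 moved by 0.30 under FAT4 siRNA and -0.03 under control siRNA. The counting intervals of the LOX and TNC ratios under FAT4 siRNA included 1, and signs of changes this small can turn on the scaling. How many of all genes had opposite signs was not counted. The ratio of FAT4 siRNA over control siRNA had 1 sign at both times for each of the 9 genes. Its interval included 1 for LOX and THBS1 at 48 h and for LOXL2 and TGFBR2 at 24 h. The intervals cover counting error only, so they do not settle the sign for any of the 9 genes. The share of all genes with 1 sign at both times was not counted.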

How the results depend on the processing

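For FAT4 siRNA against control siRNA, 4 of the 9 genes were called higher and 3 lower, among 1625 higher and 1930 lower genes. DESeq2's Wald test called 1 of the 9 higher, among 599, and 635 genes lower; a fit with the siRNA term alone called 0 of the 9 in either direction and 0 and 0 genes in all; a preset biological coefficient of variation of 0.1 called 2 higher, among 860. Under that preset value THBS1, which passed the filter only through the library where it was high, had an adjusted p of 0.0364, and TNC (0.148), FN1 (0.261), VIM (0.156) and LOXL2 (0.053) were not called. For 48 h against 24 h, 1 of the 9 was called higher and 3 lower, among 1892 and 1754 genes. DESeq2 called 0 higher and 1 lower (531 and 645 genes), the time term alone 0 and 0 (46 and 4; 1821 genes, VIM among them, at an unadjusted p under 0.05), the preset value 1 lower (824 genes lower), and GC and length offsets 5 lower (2986 genes lower), adding TNC (-0.19, adjusted p = 0.0279) and TGFBR2 (-0.27, 0.0137). Leaving out 1 library at a time gives values with no test: the time change of LOX ran from -0.053 to 0.846, of TNC from -0.285 to 0.029 and of FN1 from -0.04 to 0.296. The cause of these moves was not tested. Depth limits THBS1, LOXL3 and LOXL4. The median log2 fold change of all genes moved by under 0.1 in each fit.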

Other observations

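Genes whose levels followed these most closely over the 4 libraries were taken by Euclidean distance of centred log2(CPM + 1) among the 10594 other genes that averaged 5 CPM or more. With 4 libraries such neighbours are a description only. LOX was nearest to PBLD and ZNF564 (both 0.184), and 2 genes in all lay within 0.2 of it. LOXL1 was nearest to CALR (0.0716), the calcium-binding chaperone calreticulin, and FSCN1 (0.0831), the actin bundler fascin, with 48 genes within 0.2. For TIMP3 the nearest were TBC1D4 (0.0955) and DUSP26 (0.0964), with 24 genes within 0.2. LOXL2 lay nearest to ACCN1 (0.0395) and KDM4A (0.0461), VIM to NOP56 (0.0314) and DDX27 (0.0518), FN1 to NSUN6 (0.0241) and GAS5 (0.0274), TNC to SNHG10 (0.0187) and PRDM4 (0.0283), and TGFBR2 to POU4F1 (0.0203) and ATF7IP2 (0.0227). Between 87 (LOXL2) and 988 (TGFBR2) genes lay within 0.2 of these 5. LOX and TIMP3 thus had the fewest genes within 0.2. This count depends on the size of the changes as well as on the pattern, and it was not taken for all genes.

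Among the Ewing sarcoma markers, 1 of 9 was called higher and 3 of 9 lower under FAT4 siRNA by edgeR, against 11.9% and 14.1% of all tested genes. NKX2-2, a homeobox factor induced by the fusion, stood at 38.4 and 52.4 CPM under FAT4 siRNA (48 h, 24 h), against 86 and 76.4 CPM under control siRNA (log2 fold change -0.85, edgeR adjusted p = 2.21e-13). PRKCB (-0.34, edgeR adjusted p = 0.0013) and NR0B1 (-0.29, 0.0246) were the others called lower, and LIPI (0.31, 0.00758) was the one called higher. The median log2 fold change of the 9 markers was 0. FLI1, whose reads can come from the fusion, was not called (0.21, edgeR adjusted p = 0.0974).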
